A study of Fragaria x ananassa with 9 samples.

Results

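The unigenes described here are those whose transcript level at the beginning of coloration (PF_Z) stood apart from the levels both before and after it, in the petals of Sijihong, a strawberry cultivar with pink flowers. A unigene was counted as a peak where its 3 PF_Z values all lay above the 6 values of the other stages, and as a trough where they all lay below them. Of 50285 unigenes listed, 47924 reached 1 TPM in at least 3 libraries and were tested, and 1312 of these were peaks (2.74%) and 2434 were troughs (5.08%). Whether troughs outnumbered peaks depended on the scaling of the libraries, as given below. TPM is a level of transcript scaled for transcript length and to a common total per library. The series holds 9 petal RNA libraries, 3 biological replicates of each stage. PF_L denotes young buds without petal color, PF_Z the onset of pigmentation as the calyx starts to part, and PF_D large unopened buds at full color. Each library came from petals of this 1 cultivar, which goes back to a cross of Fragaria with Potentilla, and the labels name no treatment.

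Petals grow first by cell division and then by cell expansion, while the epidermis begins to make anthocyanin, volatile terpenes and a patterned cuticle. Anthocyanins arise from phenylalanine through the phenylpropanoid route, chalcone synthase and a chain of flavonoid enzymes, and glycosyltransferases then attach sugars that make the pigment stable. Jasmonate is a lipid hormone needed for the late growth of stamens and petals, and JAZ proteins of the TIFY family repress its response factor MYC2 until the hormone triggers their removal. AP2/ERF, WRKY and NAC proteins are large families of plant transcription factors, many of them raised quickly by wounding, cold or hormones.

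A contrast of the PF_Z mean with the average of the PF_L and PF_D means was fitted to log2(TPM + 1) values with limma, and a unigene was called at a log2 contrast of at least 1 in either direction with a Benjamini-Hochberg adjusted p under 0.05. The contrast was called higher in PF_Z for 1481 unigenes (3.09%) and lower for 1434 (2.99%). The median contrast of all unigenes tested was -0.16, so that a unigene with no change of rank sat slightly below 0. Median-ratio scaling brought that median to -0.03 and quantile normalization to -0.05, and the share of higher calls then went from 50.8% to 63.8% and 62.7%. Peaks then outnumbered troughs, at 1951 against 1414 with median ratios and 1808 against 1414 with quantile normalization. The third PF_Z library lay apart from the other PF_Z libraries. On the second principal component, which held 17.2% of the variance, PF_Z1 and PF_Z2 scored -100.0 and -106.7 and PF_Z3 scored -24.9, against scores of 1.31 to 74.1 for the other stages. With a library left out, a peak or trough has fewer values to clear, and both were more numerous whichever library was left out. Without PF_Z3 there were 2960 peaks and 6623 troughs, against 1779 and 3191 without PF_Z1 and 1770 and 3344 without PF_Z2. The calls rose to 2061 higher and 2169 lower without PF_Z3. Without PF_Z1 they dropped to 665 higher and 606 lower, and without PF_Z2 to 687 and 699. Of the unigenes named below or by the rule for named genes, 108 of those called could be fitted without PF_Z3, and 103 of them kept the call. Without PF_Z1, 74 of 108 kept it, and without PF_Z2, 76 of 108.

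The tissue label was checked against marker genes. The 6 unigenes of petal B-class homeotic proteins, the PMADS and DEFICIENS type factors that specify petals, summed to 2704 to 3396 TPM over the 9 libraries, and limma called none, with 3 lower at an unadjusted p under 0.05 and 1 called lower without PF_Z3 or PF_D1. The 14 markers of tapetum and pollen wall, anther tissues, summed to 81.3 to 99.1 TPM in PF_Z against 103 to 105 TPM in PF_L and 57.0 to 74.3 TPM in PF_D. The 28 markers of pollen summed to 2256 to 3005 TPM in PF_Z, 1680 to 2080 TPM in PF_L and 894 to 2110 TPM in PF_D. Most of that sum came from a pair of unigenes described as pollen-specific leucine-rich repeat extensin-like proteins, while the number of pollen markers at 1 TPM or more went from 14 to 16 in PF_L through 17 to 18 in PF_Z to 24 to 25 in PF_D, and between PF_L and PF_D 13 of the 28 were called up and 4 down. The 4 markers of carpel and ovule summed to 28.2 to 56.8 TPM over all libraries. The part of other flower tissues in the results below was not tested, and in whole petals fewer cells of a type cannot be told apart from less RNA per cell.

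Among the peaks, 774 were also called higher (1.62% of all tested), and among the troughs 562 were called lower (1.17%). Since the position of the PF_Z values chose these unigenes, their contrasts are given as descriptions. The called peaks had a median contrast of 1.49 and the called troughs one of -1.32. Of the 774, 61 reached 1 TPM in PF_Z libraries alone, so these entered through the stage where they were high. The called peaks together made up 7.62% to 9.97% of all TPM in the PF_Z libraries, 3.76% to 4.82% in PF_L and 1.58% to 2.83% in PF_D. The called troughs were of low level, at 0.302% to 0.448% of TPM in PF_Z and 0.907% to 1.3% in the other stages. The median length was 767.5 bp among called peaks, 441.5 bp among called troughs and 580.5 bp among all tested, and 68.6%, 52.7% and 62.4% of them carried a protein description. In 325 peaks (0.678%) both steps, PF_Z against PF_L and PF_Z against PF_D, were called as well, and in 174 troughs (0.363%). Taken singly over all unigenes tested, PF_Z was called higher than PF_L in 2.15% and lower in 4.7%, and higher than PF_D in 9.07% and lower in 8.89%. Without PF_Z3 there were 1582 called peaks and 1385 called troughs, with both steps called in 718 and 501. Without PF_Z1 there were 434 and 291, and without PF_Z2 470 and 351. The count of peaks with both steps called also dropped to 125, 165 and 132 without PF_L1, PF_L2 and PF_L3, and that of troughs to 70, 95 and 72. The PF_Z library nearest to the other stages was PF_Z3 in 57.0% of called peaks and in 55.9% of called troughs.

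**Figure D1:**
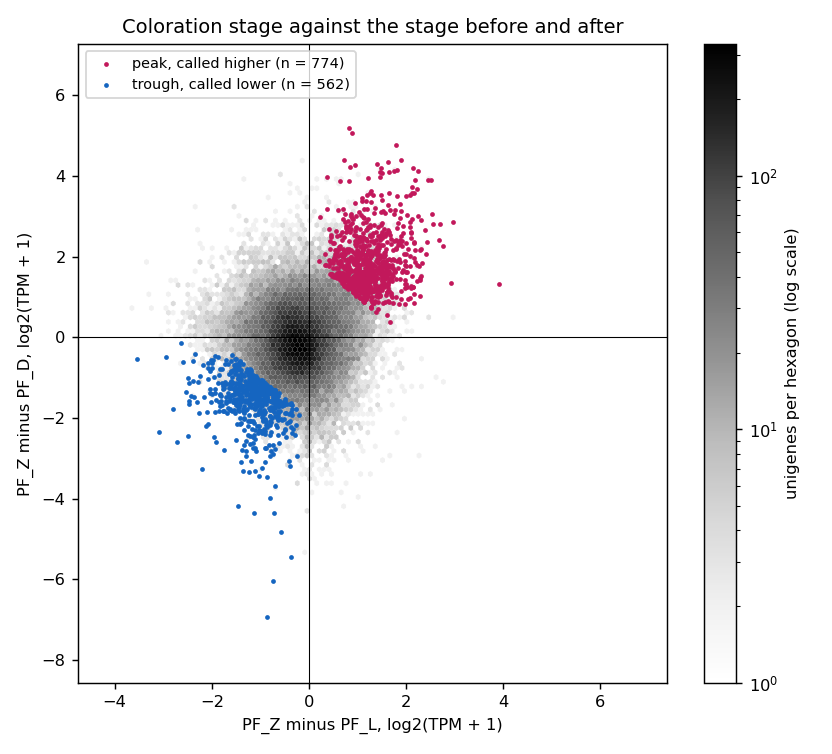
Each unigene tested by its log2 difference from PF_L (x axis) and from PF_D (y axis), with the number of unigenes per hexagon in grey, the 774 called peaks in pink and the 562 called troughs in blue. Called peaks fill the upper right corner and called troughs the lower left, and most unigenes lie near the median of -0.21 on the x axis and -0.08 on the y axis.

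Some peaks and troughs ended at another level than they began. The counts that follow are a description, since the PF_L and PF_D values had also served to choose these unigenes, although their difference takes no part in the contrast. Of the 774 called peaks, 221 were lower in PF_D than in PF_L (28.6%) and 11 were higher (1.42%), beside 15.7% lower and 9.38% higher among all unigenes tested. Of the 562 called troughs, 126 were higher in PF_D (22.4%) and 28 were lower (4.98%). Without PF_Z3 the shares were 31.5% lower and 3.16% higher among 1582 called peaks, and 25% higher and 5.42% lower among 1385 called troughs. The few peaks that ended higher were 21 without PF_Z2 and 50 without PF_Z3. For most members, 542 of the called peaks and 408 of the called troughs, PF_D and PF_L were not called different.

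**Figure D2:**
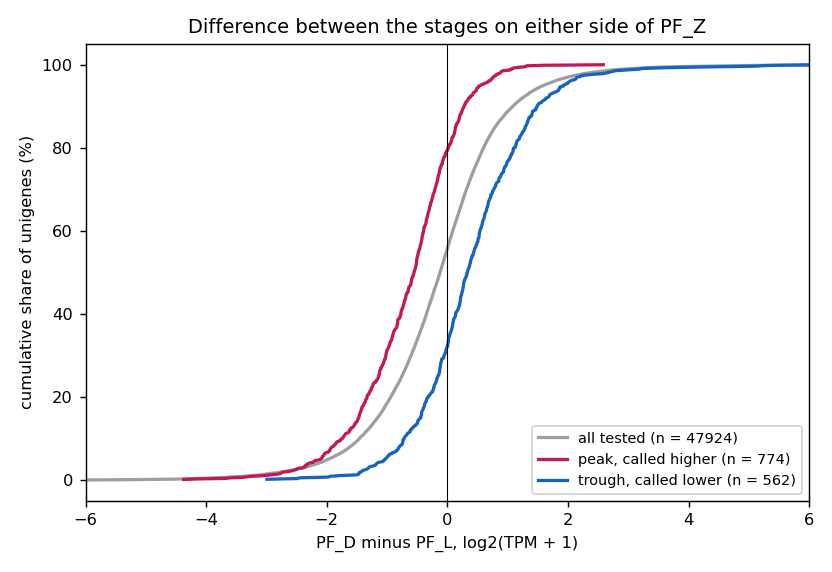
Cumulative share of unigenes (y axis, %) by the log2 difference of PF_D from PF_L (x axis) for all 47924 unigenes tested, the 774 called peaks and the 562 called troughs. The curve of the peaks lies to the left of that of all unigenes, with a median of -0.55 against -0.12, and the curve of the troughs lies to the right, with a median of 0.33.

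Among the tallest named peaks were transcription factors of the AP2/ERF family. By the smaller of its steps from PF_L and PF_D, the tallest peak of all was a 278 bp unigene with no description (DN15202_c1_g2), at 9.57, 14.8 and 8.76 TPM in PF_Z, 0, 0.4 and 1.45 TPM in PF_L and 0.34, 0.8 and 0.8 TPM in PF_D, and the tallest with a gene name was ERF025. In Arabidopsis, DREB1 proteins, also called CBF, bind a drought- and cold-responsive promoter element. DREB1D (DN20366_c1_g1) was the most abundant of them, at 2487, 2641 and 1709.8 TPM in PF_Z, 337, 931 and 687 TPM in PF_L and 346, 31.02 and 107 TPM in PF_D. A DREB1B unigene of the same assembly cluster (DN20366_c1_g2), which may be a copy of the same gene, had 420.1, 548 and 260.1 TPM in PF_Z, 46.4, 126 and 93.1 TPM in PF_L and 65.8, 6.45 and 21.7 TPM in PF_D. A separate DREB1B (DN23887_c0_g1) had 58.7, 43.6 and 9.46 TPM in PF_Z, 6.64, 4.27 and 6.47 TPM in PF_L and 1.11, 0.2 and 2.32 TPM in PF_D. Every PF_Z library was above every other library in all of these, PF_Z3 was the lowest of the PF_Z libraries and PF_D2 the lowest of all. The log2 contrasts were 3.15 ± 0.61, 3.19 ± 0.58 and 3.04 ± 0.51 (SE, n = 3 libraries per stage), and without PF_Z3 they were 3.34, 3.48 and 3.81. All 4 unigenes named DREB1 in the file were called peaks. ERF025, a relative of the DREB proteins, had 421, 324 and 81.2 TPM in PF_Z against 26.1, 42.5 and 34.1 TPM in PF_L and 50.6, 11.9 and 47.4 TPM in PF_D, a contrast of 2.76 ± 0.55. Here PF_Z3 stood well below the other PF_Z libraries, and the contrast was 3.48 without it. Without PF_Z1, DREB1D, the first DREB1B and ERF025 kept contrasts of 3.07, 3.13 and 2.30 but were not called, and without PF_Z2 the values were 3.03, 2.94 and 2.49, again not called.

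**Figure D3:**
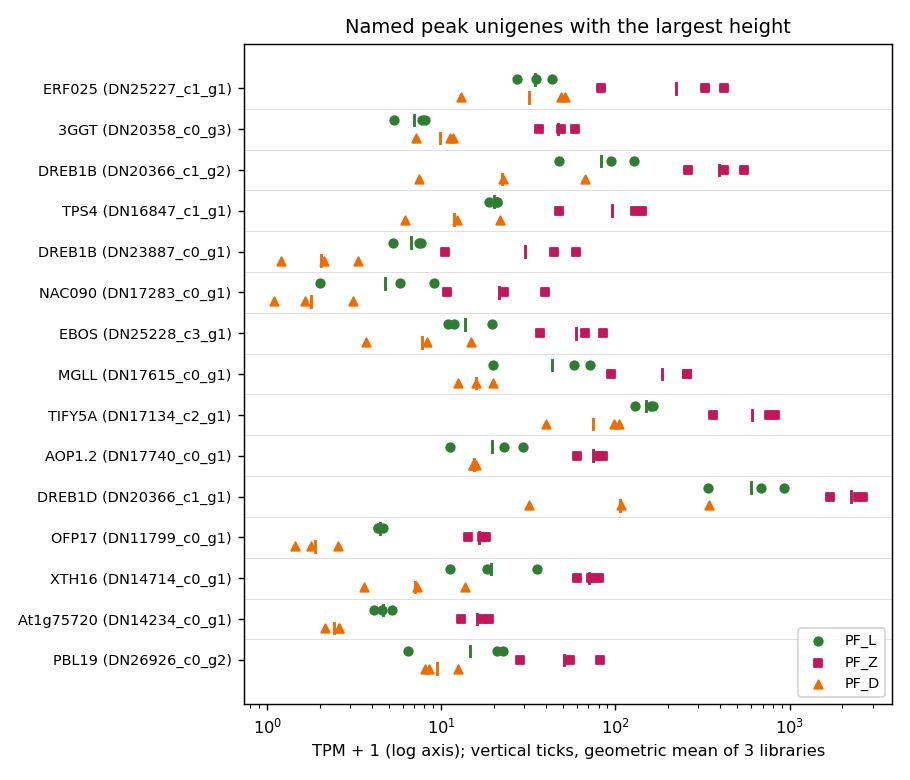
TPM + 1 in each library (x axis, log scale) of the 15 named called peaks with the largest smaller step, that is, the smaller of the PF_Z differences from PF_L and from PF_D. Points are libraries, colored by stage, and vertical ticks are geometric means of 3 libraries. In all 15 the PF_Z points lie to the right of the others, and DREB1D reaches the highest level.

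The wider ERF list, 91 unigenes described as ethylene-responsive transcription factors, had 15 members called higher (16.5%) and 6 called lower (6.59%), with 9 called peaks and 2 called troughs. Its median contrast was 0.47 above that of all unigenes. Of the 15, only 2 were called higher in PF_Z than in PF_L and 14 higher than in PF_D, and over the list the median PF_Z difference was -0.04 from PF_L and 1.12 from PF_D, with 45 of 91 called lower in PF_D than in PF_L. ERF109, a wound- and jasmonate-responsive factor in Arabidopsis, was at 351, 356 and 267 TPM in PF_Z, 96.4, 201 and 139 TPM in PF_L and 39.8, 7.88 and 23.7 TPM in PF_D, with no overlap. ERF017 was at 365, 365 and 615 TPM in PF_Z, 230.0, 344 and 202 TPM in PF_L and 223, 69.8 and 115 TPM in PF_D, and there PF_L2 came close to the lower PF_Z libraries. The contrast of ERF017, 1.31 ± 0.34, passed the fold in every fit with 1 library left out, but the adjusted p only without PF_D1 or PF_L2. Its values without the others, not called, were 1.27 (PF_L1), 1.23 (PF_L3), 1.43 (PF_Z1), 1.43 (PF_Z2), 1.05 (PF_Z3), 1.11 (PF_D2) and 1.29 (PF_D3). These were picked from the list after their values were seen. WIN1, an activator of wax and cutin synthesis in Arabidopsis, was called higher without a peak, since its 66.1, 48.1 and 84.1 TPM in PF_Z rose from 3.67, 2.53 and 3.44 TPM in PF_L and stayed at 69.8, 73.5 and 98.2 TPM in PF_D. The member of highest mean, RAP2-2, was not called, at a contrast of 0.35 ± 0.13. ERF113 was a trough, with 1.92, 4.02 and 4.61 TPM in PF_Z, 8.02, 16.4 and 9.89 TPM in PF_L and 8.03, 6.81 and 17.8 TPM in PF_D, but its call was lost without PF_L2, PF_L3, PF_Z1 or PF_Z2, at contrasts of -1.26, -1.43, -1.11 and -1.50. Without PF_Z1 or PF_Z2 the list had 6 members called higher, without PF_L1 or PF_L3 9 and without PF_Z3 14, and called lower were 3 without PF_L2 or PF_Z1 and 2 without PF_Z2 or PF_D2.

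The list of jasmonate repressors and MYC2 had the highest share called higher of the lists compared. Of 20 unigenes described as TIFY proteins or MYC2, 12 were called higher (60%) and 1 lower (5%), and 7 were called peaks. All 12 were called higher in PF_Z than in PF_D and 6 higher than in PF_L, and 11 of the 20 were called lower in PF_D than in PF_L. The median contrast lay 1.32 above that of all unigenes. TIFY5A, a JAZ protein, was at 764, 825 and 361 TPM in PF_Z, 129, 164 and 159 TPM in PF_L and 104, 39.1 and 97.7 TPM in PF_D. A unigene matched to TIFY 5B of woodland strawberry (DN20322_c0_g3) was more even within PF_Z, at 114, 111 and 104 TPM against 17.04, 25.7 and 33.02 TPM in PF_L and 10.4, 8.38 and 6.28 TPM in PF_D. In both the 3 stages were fully apart, with PF_D lowest. Their contrasts were 2.53 ± 0.34 and 2.86 ± 0.21, and without PF_Z3 2.91 and 2.89. TIFY10B had the highest level of the list, 1609, 1571 and 969.7 TPM in PF_Z, 506, 889.6 and 802 TPM in PF_L and 623, 479.9 and 533 TPM in PF_D, and its contrast of 1.12 ± 0.23 was not called without PF_L1, PF_Z1 or PF_Z2 (0.99, 0.99 and 1.01). The MYC2 unigenes went both ways. A called trough (DN13217_c0_g1) was at 0.15, 0.51 and 0.54 TPM in PF_Z, 3.26, 6.92 and 4.94 TPM in PF_L and 1.88, 2.21 and 1.43 TPM in PF_D, while the most abundant one (DN26917_c0_g1), at 341, 356 and 569 TPM in PF_Z, 217, 344 and 235 TPM in PF_L and 167, 88.5 and 88.4 TPM in PF_D, was called higher and overlapped PF_L at its second library. The list had 9 to 12 members called higher with any 1 library left out, and 10 without PF_Z3.

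Jasmonate synthesis was less uniform. The list of 47 lipoxygenases, allene oxide enzymes and 12-oxophytodienoate reductases had 11 members called higher (23.4%) and 5 lower (10.6%), with 2 called peaks and 1 called trough, and a median 0.39 above that of all unigenes. All 11 were called higher in PF_Z than in PF_D and only 1 higher than in PF_L. OPR3, the reductase that completes the jasmonate precursor before beta-oxidation, was a called peak at 97.02, 101 and 50.1 TPM in PF_Z, 32.3, 36.6 and 48.95 TPM in PF_L and 19.1, 20.1 and 25.7 TPM in PF_D. PF_Z3 was close to PF_L3 there, and the contrast of 1.42 ± 0.23 was 1.74 without PF_Z3. AOC4, an allene oxide cyclase and the most abundant member (DN18449_c1_g1), was at 1660.0, 1743 and 866 TPM in PF_Z and 1274, 1559 and 1525 TPM in PF_L, which overlapped, and at 87.95, 79.1 and 91.4 TPM in PF_D. The trough was LOX1 (DN22494_c0_g3), a 9-lipoxygenase, a class that does not feed jasmonate synthesis. It was at 7.07, 4.53 and 11.1 TPM in PF_Z, 13.2, 12.3 and 11.3 TPM in PF_L and 73.2, 119 and 126 TPM in PF_D. In contrast to OPR3, it was highest at PF_D, with a PF_D minus PF_L difference of 2.97 ± 0.29 (limma, adjusted p = 3.83e-05). Without PF_L1 the list had 7 members called higher, and without PF_Z3 it had 11.

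Other families of signalling proteins had peaks as well. The WRKY list held 79 unigenes, 15 called higher (19.0%) and 4 lower (5.06%), with 4 called peaks and 3 called troughs, and a median 0.48 above that of all. All 15 were called higher in PF_Z than in PF_D and none higher than in PF_L, and 13 were called lower in PF_D than in PF_L. WRKY40, a pathogen- and wound-responsive repressor in Arabidopsis, was at 994, 1336 and 1029 TPM in PF_Z, 425, 777 and 661 TPM in PF_L and 238, 86.05 and 141 TPM in PF_D. WRKY53, a regulator of leaf senescence, was at 443, 583 and 519 TPM in PF_Z, 118, 426 and 410.2 TPM in PF_L and 17.9, 11.6 and 14.2 TPM in PF_D. In both, PF_D was the lowest stage, and the PF_D minus PF_L differences were -2.07 ± 0.35 (limma, adjusted p = 0.0012) and -4.17 ± 0.42 (limma, adjusted p = 4.78e-05). WRKY16 was a trough and the reverse of these, listed at 0 TPM in all PF_Z libraries, at 6.46, 3.09 and 4.03 TPM in PF_L and at 1.65, 3.76 and 0.62 TPM in PF_D. Without PF_Z1 the WRKY list had 8 members called higher, without PF_Z2 7 and without PF_Z3 21.

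The NAC list held 72 unigenes, 13 called higher (18.1%) and 4 lower (5.56%), with 10 called peaks and 1 called trough, and a median 0.18 above that of all. All 13 were called higher in PF_Z than in PF_D and 5 higher than in PF_L. NAC090, of low level, was at 21.9, 38.5 and 9.81 TPM in PF_Z, 1.02, 8.1 and 4.81 TPM in PF_L and 2.11, 0.09 and 0.65 TPM in PF_D, a contrast of 2.88 ± 0.54 that was not called without PF_Z1 (2.83) or PF_Z2 (2.44). A cluster of NAC014 unigenes was far more abundant. Its member DN25106_c0_g1 was at 603, 613 and 444 TPM in PF_Z, 168, 259.8 and 247 TPM in PF_L and 121, 57.4 and 120.5 TPM in PF_D, and 3 unigenes of this assembly cluster were called peaks. The calcium sensors, 112 unigenes of calmodulins, calmodulin-like proteins, calcium-dependent kinases and calmodulin-binding proteins, had 15 called higher (13.4%) and 3 lower (2.68%), with 8 called peaks and no called trough, and a median 0.13 above that of all. Of these 15, 14 were called higher in PF_Z than in PF_D and 2 higher than in PF_L. Calmodulin itself (CAM) was the most abundant, at 1905, 2594 and 1404 TPM in PF_Z, 1027, 1115 and 1337 TPM in PF_L and 652, 607 and 874 TPM in PF_D, with PF_Z3 next to the highest PF_L library. CML31, a calmodulin-like protein, was at 713, 868 and 538 TPM in PF_Z, 246, 460.4 and 279 TPM in PF_L and 135, 29.1 and 108 TPM in PF_D, and did not overlap. The calls of CAM and CML31 were lost without PF_Z1, at 1.08 and 2.13, and without PF_Z2, at 0.86 and 1.99. Without PF_Z1 or PF_Z2 the list of calcium sensors had 5 members called higher, without PF_L1 or PF_D2 9 and without PF_Z3 18. Without PF_Z1 the NAC list had 6 and without PF_Z3 it had 15.

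Terpene synthases, which make the volatile and resin terpenes of flowers, were often raised. Of 18 listed, limma called 10 higher (55.6%) and none lower (0 at an unadjusted p under 0.05), and 4 were called peaks. All 10 were called higher in PF_Z than in PF_D and 4 higher than in PF_L. The median contrast lay 1.32 above that of all unigenes. The highest of the list was a unigene matched to germacrene D synthase of grapevine (DN24179_c0_g1), at 148, 367 and 354 TPM in PF_Z, 7.17, 22.4 and 12.4 TPM in PF_L and 80.2, 153 and 98.96 TPM in PF_D. It was no peak, as PF_Z1 was just below PF_D2. AFS1, an alpha-farnesene synthase (DN19703_c1_g2), was a peak at 23.4, 22.98 and 14.7 TPM in PF_Z, 0.91, 5.49 and 5.44 TPM in PF_L and 6.41, 7.06 and 6.08 TPM in PF_D. Its contrast of 1.88 ± 0.36 was not called without PF_Z1 (1.77) or PF_Z2 (1.79). A pair of tricyclene synthases, monoterpene enzymes whose description the list did not cover, was among the tallest peaks. TPS4 was at 46.1, 141 and 129 TPM in PF_Z, 17.9, 19.9 and 19.8 TPM in PF_L and 5.16, 20.7 and 11.3 TPM in PF_D. EBOS was at 35.8, 84.1 and 66 TPM in PF_Z, 9.9, 10.9 and 18.6 TPM in PF_L and 2.7, 13.9 and 7.33 TPM in PF_D. In both, PF_Z1 and not PF_Z3 was the lowest PF_Z library. The count of terpene synthases called higher was 4 without PF_Z1, 5 without PF_Z2 and 6 without each of PF_L1, PF_L3, PF_D1, PF_D3 and PF_Z3.

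The enzymes of pigment synthesis that were called were mostly high at both later stages and were not peaks. Of 22 early flavonoid enzymes, limma called 10 higher (45.5%) and none lower (1 at an unadjusted p under 0.05), and the median contrast lay 1.11 above that of all unigenes. All 10 were also called higher in PF_Z than in PF_L and higher in PF_D than in PF_L, and none was called different between PF_Z and PF_D. CHI1, a chalcone isomerase, was the 1 called peak, at 268, 173 and 267 TPM in PF_Z, 70.8, 38.9 and 63.4 TPM in PF_L and 91.95, 133 and 136 TPM in PF_D. Chalcone synthase CHS1 (DN26374_c0_g4, a fragment of 260 bp), the most abundant, was instead at 2614, 1386 and 3161 TPM in PF_Z, 284, 100.1 and 169 TPM in PF_L and 2746, 4464 and 3829 TPM in PF_D. PF_Z2 was the lowest PF_Z library in both. The call of CHS1 was lost without PF_Z1 (1.42) or PF_Z3 (1.28), and the list had 5 members called higher without PF_Z1 and 7 without PF_Z3.

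Of 28 late anthocyanin and proanthocyanidin enzymes, limma called 5 higher (17.9%) and none lower (4 at an unadjusted p under 0.05), with 2 called peaks and a median 0.53 above that of all. Without PF_L3, PF_Z1 or PF_Z3 the count of those called higher was 3. The anthocyanidin 3-O-glucoside 2''-O-glucosyltransferase 3GGT (DN20358_c0_g3), which adds a sugar to an anthocyanin that already carries glucose, came next to ERF025 among named peaks by its smaller step. It was at 57.7, 35.4 and 47.8 TPM in PF_Z, 6.8, 4.32 and 7.04 TPM in PF_L and 10.7, 6.18 and 10.2 TPM in PF_D, a contrast of 2.51 ± 0.23 that was 2.49 without PF_Z3. Its PF_D minus PF_L difference of 0.50 ± 0.26 (limma, adjusted p = 0.168) was not called. LAR, leucoanthocyanidin reductase of the tannin branch, was the other peak, at 4.79, 3.82 and 8.26 TPM in PF_Z, 1.93, 1.93 and 1.14 TPM in PF_L and 2.6, 2.4 and 3.39 TPM in PF_D. Its contrast of 1.01 ± 0.25 lay near the fold limit and the call was lost without PF_L1 (1.05), PF_L3 (0.94), PF_Z1 (1.08), PF_Z3 (0.74), PF_D1 (0.996) or PF_D2 (0.98). ANS, anthocyanidin synthase (DN20632_c0_g1), had a contrast of 2.02 ± 0.31 without being a peak, as its levels were 5.2, 1.17 and 3.01 TPM in PF_L, 288, 154 and 261 TPM in PF_Z and 736, 1014 and 758 TPM in PF_D. The contrast thus holds both peaks and early risers. In the phenylpropanoid entry list of 16, 2 were called higher (12.5%) and 1 lower (6.25%), and without PF_Z1 or PF_Z2 1 and 0. The peak there was 4CL2, a 4-coumarate-CoA ligase, at 128, 99.9 and 87.1 TPM in PF_Z, 42.9, 27.9 and 46.6 TPM in PF_L and 32.6, 7.88 and 30.3 TPM in PF_D. Its contrast of 1.86 ± 0.38 was not called without PF_Z1 (1.71) or PF_Z2 (1.89).

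**Figure D4:**
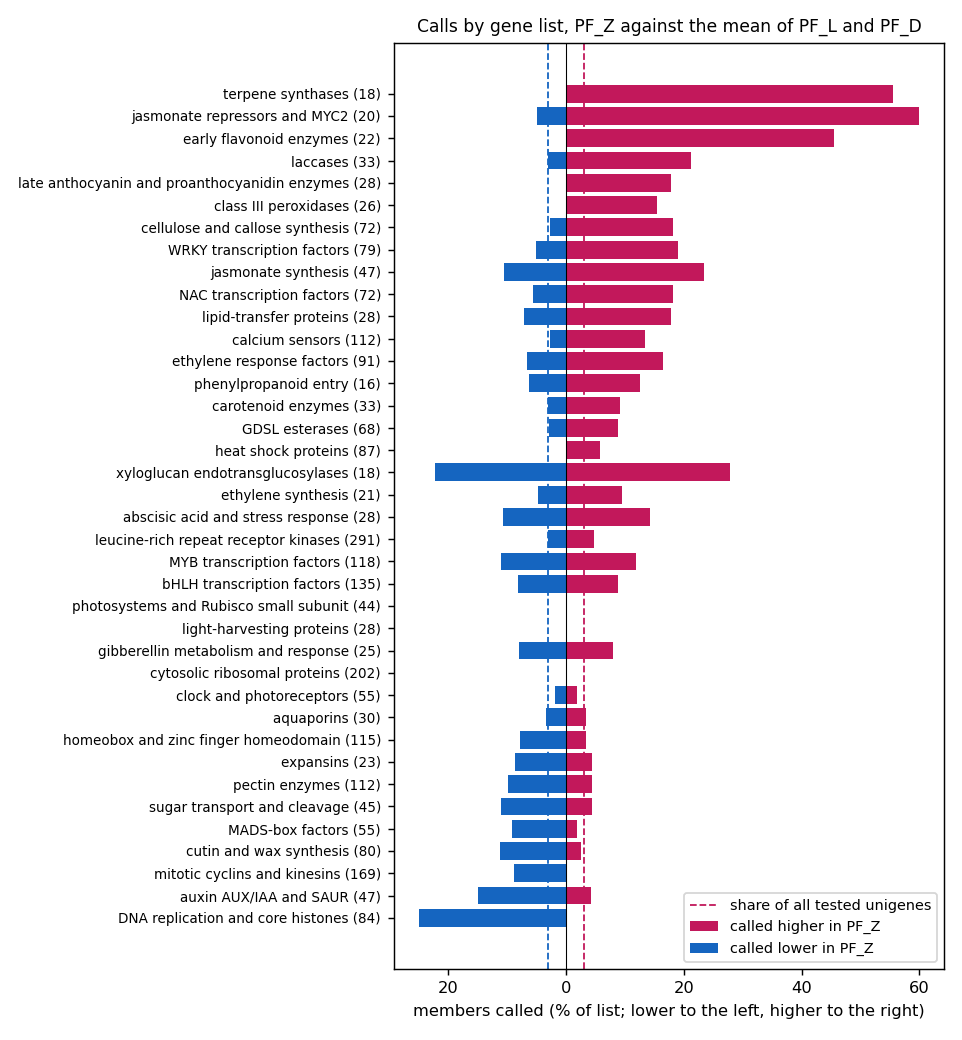
Share of each gene list called higher (to the right, pink) or lower (to the left, blue) in PF_Z against the mean of PF_L and PF_D, in % of the list's tested unigenes, whose number stands in parentheses. Dashed lines mark the shares of all unigenes tested, 3.09% and 2.99%. Jasmonate repressors with MYC2 (60%), terpene synthases (55.6%) and early flavonoid enzymes (45.5%) have the highest shares on the right, and DNA replication and core histones (25%) on the left.

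Some cell wall genes were called peaks. Of 72 unigenes for cellulose and callose synthesis, 13 were called higher (18.1%) and 2 lower (2.78%), with 12 called peaks and 1 called trough, and 9 of the 13 had both steps called. The median of the list was 0.09 above that of all. CSLD3, a cellulose synthase-like protein of tip-growing cells in Arabidopsis (DN23474_c0_g1), was at 137, 116 and 73.1 TPM in PF_Z, 16.6, 30.7 and 37 TPM in PF_L and 31.2, 22.8 and 47.1 TPM in PF_D. COBL7, a COBRA-like membrane protein, was at 147, 124 and 94.4 TPM in PF_Z, 37.1, 53.1 and 44.4 TPM in PF_L and 38.1, 17.04 and 35.1 TPM in PF_D. Neither overlapped, and PF_D and PF_L were not called different in either. Of 12 unigenes named CSLD, 4 were called peaks and 0 were called lower. The CSLD3 unigene DN15913_c0_g1 fell, at mean levels of 6.84, 0.807 and 0.0167 TPM in PF_L, PF_Z and PF_D. So did the CSLD3 unigene DN13905_c1_g4, at 8.09, 1.18 and 0.0367 TPM. CSLD1 (DN28263_c0_g1) also fell, at 7.44, 0.553 and 0 TPM, and CSLD2 (DN13905_c1_g2), at 10.5, 0.993 and 0.09 TPM. The cellulose synthases CESA4, CESA7 and CESA8, which make secondary walls in vessels and fibres, were all called higher in their 5 unigenes, 4 of them peaks, although at mean levels of only 3.50 to 12.3 TPM in PF_Z among those peaks. CESA8 was at 10.5, 11.4 and 14.9 TPM in PF_Z, 6.06, 3.92 and 3.82 TPM in PF_L and 1.45, 0.72 and 1.88 TPM in PF_D. CESA4 was at 4.78, 5.57 and 10.2 TPM in PF_Z, 2.29, 1.66 and 1.66 TPM in PF_L and 0.58, 1.33 and 2.58 TPM in PF_D. In both, PF_Z3 was the highest library. Of the 9 unigenes named for the other CESA proteins none was called, and CESA3 (DN27223_c0_g2), the most abundant of the list, was at 108, 99.7 and 132 TPM in PF_Z, 131, 97.1 and 119 TPM in PF_L and 173, 228 and 195 TPM in PF_D. Without PF_Z1 or PF_Z2 the whole list had 8 members called higher, and without PF_Z3 it had 12.

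Further genes known from lignified walls in Arabidopsis peaked at low levels too, a grouping made after their values were seen. COBL4 (DN18590_c0_g1), needed for secondary wall cellulose, was at 7.87, 6.57 and 11.01 TPM in PF_Z, 3.08, 1.91 and 2.65 TPM in PF_L and 0.38, 1.19 and 1.49 TPM in PF_D. Laccases, which polymerize lignin, had 7 of 33 members called higher (21.2%) and 1 lower (3.03%), with 4 called peaks and a median 0.24 above that of all. Among them IRX12, laccase 4 (DN17045_c0_g2), was at 4.3, 3.71 and 3.73 TPM in PF_Z, 1.31, 0.89 and 0.83 TPM in PF_L and 0.32, 0.75 and 0.73 TPM in PF_D. The other IRX12 unigenes were no peaks. DN17045_c0_g1 was not called. DN19140_c0_g3 was called higher, at mean levels of 0.68, 4.09 and 2.67 TPM in PF_L, PF_Z and PF_D. The called laccase peak LAC11 (DN16963_c0_g4) reached 1 TPM in PF_Z alone, at 1.27, 2.06 and 1.61 TPM, so it entered through the stage where it was high. The NAC factors NAC007, NAC010, NAC037 and NAC073, regulators of xylem and fibre walls, had 7 unigenes, of which 5 were called higher and 4 were called peaks. NAC007 was at 2.79, 2.58 and 3.22 TPM in PF_Z, 1.29, 1.33 and 1.38 TPM in PF_L and 0.13, 0.07 and 0.19 TPM in PF_D. In COBL4 (DN18590_c0_g1), IRX12 (DN17045_c0_g2) and NAC007 the stages were apart, with PF_D lowest. NAC037 was called higher without a peak, at mean levels of 7.62, 6.33 and 0.143 TPM in PF_L, PF_Z and PF_D. The 14 phloem markers, another vascular cell type, summed to 723 to 968 TPM in PF_Z, 1245 to 1339 TPM in PF_L and 337 to 676 TPM in PF_D, so their sum did not peak. Of the 14, 4 were called higher (28.6%) and 1 lower (7.14%), with 2 called peaks beside 1.62% of all tested. Their median was 0.54 above that of all. All 4 were called higher in PF_Z than in PF_D and 0 higher than in PF_L. The part of vascular cells in the wall genes was not tested. Without PF_Z1 or PF_Z2 the laccases had 4 members called higher, and without PF_Z3 they had 5. With 5 added to the TPM no laccase was called, nor were CESA4, COBL4, IRX12 and NAC007, at contrasts of 0.81, 0.99, 0.62 and 0.46.

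Enzymes that remodel the wall split. Among 18 xyloglucan endotransglucosylases, which cut and rejoin xyloglucan chains, 5 were called higher (27.8%) and 4 lower (22.2%), with 3 called peaks and 2 called troughs. Without PF_Z3 there were 3 higher and 5 lower, without PF_Z1 1 and 3 and without PF_Z2 1 and 4, and the median, 0.51 above that of all, was 0.22 above it without PF_Z3. XTH16 (DN14714_c0_g1) was at 59.1, 79.2 and 71.02 TPM in PF_Z, 10.2, 17.2 and 34.4 TPM in PF_L and 12.6, 2.58 and 6.21 TPM in PF_D. XTHB (DN17037_c0_g1) did the reverse, at 11.8, 19.9 and 13.3 TPM in PF_Z, 24.1, 66.4 and 45.5 TPM in PF_L and 487, 151 and 315 TPM in PF_D. The contrasts were 2.59 ± 0.42 and -2.82 ± 0.38, and PF_D was the lowest stage for XTH16 and the highest for XTHB. Of 112 pectin enzymes, 5 were called higher (4.46%) and 11 lower (9.82%), with 1 and 6 without PF_Z1, 1 and 7 without PF_Z2, and 3 higher without PF_L1, PF_L2 or PF_D2. PMEU1, a pectinesterase with an inhibitor domain, was an even trough, at 60.7, 49.9 and 47.05 TPM in PF_Z, 141, 130.4 and 128 TPM in PF_L and 201, 192 and 189 TPM in PF_D.

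Several gene names recurred among the called peaks. Acetyl-CoA carboxylase 1 (ACC1), which makes malonyl-CoA for fatty acids, waxes and flavonoids, had 7 unigenes, all peaks and 5 of them called. In its unigene DN8004_c0_g1 the levels were 61.01, 69.6 and 67.6 TPM in PF_Z, 35, 28.8 and 29.3 TPM in PF_L and 25.97, 24.4 and 33.6 TPM in PF_D. The contrast of that unigene was 1.14 ± 0.13, and PF_Z3 lay between the other PF_Z libraries. These unigenes may be fragments of fewer genes and are not counted as independent. INRPK1, a leucine-rich repeat receptor-like kinase known from morning glory, had 4 unigenes, all called peaks with contrasts of 2.46 to 2.93. Its unigene DN27498_c0_g1 was at 51.5, 79.8 and 63.97 TPM in PF_Z, 8.43, 25.2 and 28.6 TPM in PF_L and 3.05, 1.9 and 3.48 TPM in PF_D. PF_L1 was below the other PF_L libraries in it. AGO2, an argonaute of antiviral silencing, had 3 unigenes and all were called peaks, with contrasts of 1.16 to 1.36. YLS9, a protein first known from senescing Arabidopsis leaves, had 4 called peaks among 7 unigenes, all 4 from 1 assembly cluster.

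By mean level in PF_Z, the most abundant called peaks with a gene name were YLS9, DREB1D, CAM, SRC2 and TIFY10B. More abundant than any of them was an uncharacterized protein of woodland strawberry (DN17631_c0_g1), at 8893, 8526 and 9228 TPM in PF_Z, 7210.3, 6056 and 5587 TPM in PF_L and 2509, 1163 and 1818 TPM in PF_D. YLS9 (DN18463_c0_g6) was at 3684, 2379.5 and 2344 TPM in PF_Z, 688, 1809 and 1533 TPM in PF_L and 948, 366 and 995 TPM in PF_D. SRC2, a membrane protein known from cold-treated soybean, was at 1729.8, 1446 and 988 TPM in PF_Z, 501, 818 and 624 TPM in PF_L and 486, 167 and 375 TPM in PF_D. Both stayed above the other stages in every PF_Z library, with PF_D2 lowest. YLS9 was not called without PF_L1, PF_L3, PF_Z1 or PF_Z2 (1.34, 1.63, 1.34 and 1.66), nor SRC2 without PF_Z1 or PF_Z2 (1.42 and 1.55). Under quantile normalization the uncharacterized protein, YLS9, CAM and TIFY10B were not called, at contrasts of 0.92, 1.25, 0.90 and 0.95.

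The remaining tall peaks were single genes of varied roles. SWEET9, a sugar exporter that loads nectar in Arabidopsis, was at 661, 280.0 and 239 TPM in PF_Z, 61.6, 79.7 and 74.9 TPM in PF_L and 193, 134 and 206 TPM in PF_D. Its PF_D level exceeded that of PF_L by 1.27 ± 0.34 (limma, adjusted p = 0.0149) on the log2 scale, and it was one of the 11 called peaks that ended higher. OFP17, an OVATE family repressor, was even within stages, at 13.2, 16.2 and 17.04 TPM in PF_Z, 3.35, 3.34 and 3.63 TPM in PF_L and 1.55, 0.45 and 0.79 TPM in PF_D. MGLL, matched to a human monoglyceride lipase, was at 256, 255 and 93.6 TPM in PF_Z, 18.9, 70.5 and 56.7 TPM in PF_L and 18.8, 11.5 and 14.9 TPM in PF_D, with PF_Z3 nearest PF_L. AOP1.2, a 2-oxoglutarate-dependent dioxygenase, had contrast 2.09 ± 0.26. The receptor-like kinase PBL19 had 2.10 ± 0.43, not called without PF_Z1 (2.04) or PF_Z2 (1.75). KCS11, which elongates the fatty acids of waxes, was at 198, 193 and 143 TPM in PF_Z, 55.3, 75.1 and 80.4 TPM in PF_L and 94.5, 48.2 and 61.9 TPM in PF_D. PP2CA, a phosphatase that dampens abscisic acid signalling, was at 365, 284 and 294 TPM in PF_Z, 136, 128 and 124 TPM in PF_L and 167, 130.4 and 131 TPM in PF_D, and its counterpart PYL4, an abscisic acid receptor, was a trough at 6.73, 5.86 and 13 TPM in PF_Z, 29.8, 27.4 and 28.3 TPM in PF_L and 15.2, 22.6 and 20.04 TPM in PF_D. For both, no PF_Z library overlapped another stage.

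TOR1L3, TOR1L4 and AN were among the deepest named troughs. TOR1L3, a relative of the Arabidopsis microtubule protein TORTIFOLIA1, was at 0.41, 1.61 and 2.61 TPM in PF_Z, 10.9, 23.6 and 12.01 TPM in PF_L and 9.35, 10.3 and 23.4 TPM in PF_D. Its relative TOR1L4 was at 1.13, 3.07 and 1.37 TPM in PF_Z, 5.94, 17.8 and 11.7 TPM in PF_L and 7.58, 9.66 and 20.8 TPM in PF_D. AN, the ANGUSTIFOLIA protein that shapes leaf cells in Arabidopsis, was at 0.53, 0.93 and 2.91 TPM in PF_Z, 32.7, 8.6 and 21.2 TPM in PF_L and 21.1, 7.92 and 6.79 TPM in PF_D. All were several times lower in PF_Z than on either side, although the spread within PF_L and PF_D was wide. Their contrasts were -2.65 ± 0.38, -2.16 ± 0.38 and -2.72 ± 0.47, and none was called different between PF_D and PF_L.

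ARF9, an auxin response factor, was at 53.2, 56 and 52.8 TPM in PF_L and 14.2, 20.6 and 29.3 TPM in PF_Z and stood at 197, 199.7 and 248 TPM in PF_D, a difference between PF_D and PF_L of 1.97 ± 0.22 (limma, adjusted p = 1.06e-04). The homeobox factor ATHB-13 had the same shape, at 51.2, 51.4 and 46.6 TPM in PF_L, 14.7, 14.3 and 35.4 TPM in PF_Z and 151, 128 and 157 TPM in PF_D. INVA, a mitochondrial invertase, was at 34.2, 24.4 and 27.9 TPM in PF_L, 9.3, 15.8 and 22.2 TPM in PF_Z and 117, 89.8 and 109.6 TPM in PF_D. All belonged to the 126 called troughs that were higher in PF_D than in PF_L. Others were level on either side. UGT85A24, an iridoid glucosyltransferase by its match, was at 38.1, 48.4 and 38.6 TPM in PF_L, 5.08, 8.38 and 11.1 TPM in PF_Z and 21.8, 33.7 and 43.1 TPM in PF_D. DAPB3, a chloroplast protein of the dihydrodipicolinate reductase family, was at 34.8, 25.1 and 35.9 TPM in PF_L, 10.8, 9.66 and 10.02 TPM in PF_Z and 28.3, 35.9 and 29.99 TPM in PF_D, with little spread in any stage. The shaggy-related kinase NTK-1 was among the most abundant troughs, at 257, 314 and 269 TPM in PF_L, 101, 143 and 124 TPM in PF_Z and 283, 327 and 304 TPM in PF_D.

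**Figure D5:**
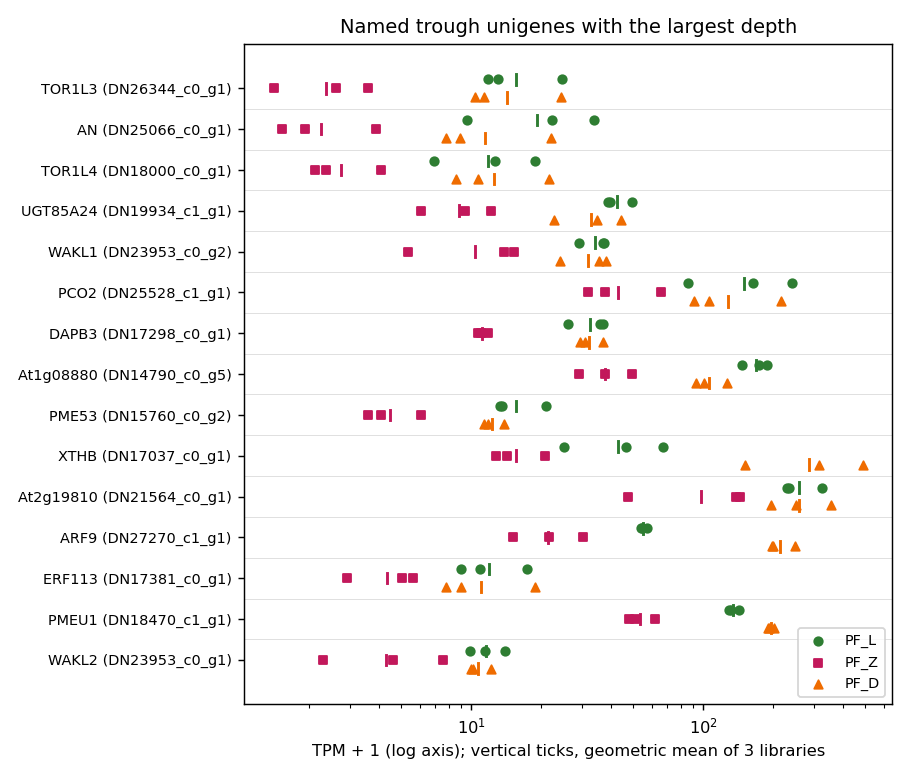
TPM + 1 in each library (x axis, log scale) of the 15 named called troughs with the largest smaller step below PF_L and PF_D. Points are libraries, colored by stage, and vertical ticks are geometric means of 3 libraries. In all 15 the PF_Z points lie to the left of the others, and for ARF9 and XTHB the PF_D points lie well to the right of those of PF_L.

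PCO2, a plant cysteine oxidase that senses oxygen, was at 30.8, 36.6 and 64.7 TPM in PF_Z, 240.4, 84.7 and 162 TPM in PF_L and 216, 105 and 90.1 TPM in PF_D. Its contrast of -1.69 ± 0.37 was not called without PF_Z1 (-1.48) or PF_Z2 (-1.60). WAKL1 and WAKL2, wall-associated receptor kinase-like proteins of 1 assembly cluster, had contrasts of -1.66 ± 0.31 and -1.37 ± 0.32. WAKL1 was called with any 1 library left out, and WAKL2 was not called without PF_L3, PF_Z1, PF_Z2 or PF_D2 (-1.31, -0.92, -1.42 and -1.33). The zinc finger protein At2g19810 was among the most abundant troughs, at 46.3, 143 and 138 TPM in PF_Z, 325, 228 and 234 TPM in PF_L and 356, 195 and 250.3 TPM in PF_D. It was not called without PF_L1, PF_L3, PF_Z1, PF_D1 or PF_D3 (-1.32, -1.44, -0.88, -1.29 and -1.42).

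Some genes of cell division were troughs, and many were lower in PF_D than in PF_L. Of 84 unigenes of DNA replication and core histones, limma called 21 lower (25%) and none higher (1 at an unadjusted p under 0.05). The list had 10 troughs, 7 of them called, beside 5.08% troughs and 1.17% called troughs among all unigenes tested. Its median was 0.35 below that of all, and 51 of the 84 were called lower in PF_D than in PF_L. Of the 21, 19 were called lower in PF_Z than in PF_L and 2 lower than in PF_D, and 10 had a PF_D mean below that of PF_Z. Over the list PF_Z was above PF_D in 54 of 84, with a median difference of 0.20. The histone At1g08880, an H2AX (DN14790_c0_g5) that the list does not hold, was a trough with partial recovery, at 28.2, 36.6 and 48.4 TPM in PF_Z, 145, 187 and 173 TPM in PF_L and 126, 99.3 and 91.7 TPM in PF_D. Histone H2B.7 (At3g46030) was at 49.1, 74.9 and 77.9 TPM in PF_Z, 301, 331 and 279.9 TPM in PF_L and 114, 103 and 102 TPM in PF_D. In H2B.7 the PF_D level stayed well below that of PF_L, by -1.50 ± 0.18 (limma, adjusted p = 1.56e-04) on the log2 scale. Of 169 mitotic cyclins and kinesins, limma called 15 lower (8.88%) and none higher (6 at an unadjusted p under 0.05). This list had 10 troughs, 4 of them called, and a median 0.22 below that of all, and 73 were called lower in PF_D than in PF_L. Of the 15, 11 were called lower in PF_Z than in PF_L and 5 lower than in PF_D, and over the list PF_Z was above PF_D in 93 of 169, with a median difference of 0.12. A unigene described as G2/mitotic-specific cyclin-2 (DN19006_c0_g2) was at 3.5, 4.62 and 5.28 TPM in PF_Z, 18.2, 25.4 and 20.2 TPM in PF_L and 16.4, 12.3 and 9.09 TPM in PF_D. The replication list had 11 members called lower without PF_Z1 and 26 without PF_Z3. The mitotic list had 6 without PF_Z1, 8 without PF_Z2, 9 without PF_L1, 8 without PF_L2 and 20 without PF_Z3.

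Lists of ribosomal and photosynthesis proteins had no member called, while others had calls in both directions. None of 202 cytosolic ribosomal proteins was called by limma in either direction, and at an unadjusted p under 0.05 there were 2 higher and 8 lower, while 1 was called higher without PF_Z3. None of 28 light-harvesting proteins and 44 photosystem and Rubisco proteins was called either, with 1 and 9 higher and 0 and 1 lower at an unadjusted p under 0.05. Without PF_Z3, 2 light-harvesting and 3 photosystem or Rubisco proteins were called higher and 1 of the latter lower, and the light-harvesting median went from 0.58 to 1.15 above that of all unigenes. Without PF_D1, 1 photosystem or Rubisco protein was called lower. Of the light-harvesting proteins 24 were called lower in PF_D than in PF_L, and PF_Z3 was below the other PF_Z libraries in their sum. The summed level of light-harvesting proteins was 5678, 3666 and 1558 TPM in PF_Z1, PF_Z2 and PF_Z3, against 4668 to 7239 TPM in PF_L and 478 to 1838 TPM in PF_D. PF_Z3 was therefore within the range of PF_D on this measure. In the sum of photosystem and Rubisco proteins it was not, at 3011 TPM against 740 to 1597 TPM in PF_D and 7763 to 10447 TPM in PF_L. Of 118 MYB transcription factors, 14 were called higher (11.9%) and 13 lower (11%), with 5 called peaks and 4 called troughs. Without PF_L1 the MYB list had 12 higher and 7 lower. MYB44, a stress-responsive MYB, was a peak at 824, 799 and 684 TPM in PF_Z, 434, 324 and 399.5 TPM in PF_L and 419, 143 and 216 TPM in PF_D, not called without PF_Z1 (1.299) or PF_Z2 (1.32). Of 80 cutin and wax genes, 2 were called higher (2.50%) and 9 lower (11.2%), and 8 of those 9 were called higher in PF_D than in PF_L.

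Not every peak or trough passed the limits. Of the 538 peaks not called, 71 passed the fold alone, 229 the adjusted p alone and 238 neither. Of the 1872 troughs not called, 107 passed the fold alone, 688 the adjusted p alone and 1077 neither. At the fold limit, SYP124 was just inside among called peaks, with a contrast of 1.0004, and GXM1 just outside, at 0.99992. Conversely, 707 unigenes were called higher while 1 or more of their PF_Z values overlapped another stage. For 555 of these the PF_Z mean was the highest, for 131 the means fell from PF_L to PF_D and for 21 they rose. Of 872 called lower with an overlap, the PF_Z mean was the lowest in 510.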

How the data were processed

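Poly(A) RNA of petals from 3 bud stages was sequenced on an Illumina HiSeq instrument, and the reads of all 9 libraries were assembled with Trinity, whose unigenes were named by their best protein matches with DIAMOND. The authors deposited 1 table of TPM values per unigene and library, scaled for length, whose sum over the unigenes listed was 993148 to 994911 per library. The program that gave the TPM values is not stated. The submitters' processing notes name Bowtie 0.12.2, HISAT2 2.0 and StringTie 1.3.0 without a role. TPM keeps no sequencing depth, so the depth behind each value is unknown and no counting interval was computed. No column was left unmapped (0).

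Stages were compared with limma 3.58.1 in R 4.3.3 on log2(TPM + 1), with a variance trend, over unigenes of at least 1 TPM in 3 libraries, and p-values were adjusted by Benjamini-Hochberg over all 47924. All 9 libraries entered 1 fit, with no replicate block. A fold on this scale understates the change of low unigenes, and p-values measure the spread between these libraries only. Calls used a log2 limit of 1 and an adjusted p under 0.05. The scripts were tested on simulated data.

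Members, gene lists and rules were chosen with earlier results of these data known. Named genes were the 15 called peaks and 15 called troughs with the largest smaller step, among those with a gene name and a highest stage mean not under 10 TPM, the 5 of each with the highest level, and in each of 43 lists, matched by protein description, the tallest called peak, the deepest called trough and the most abundant member. Others were picked after their values were seen. Unigenes of 1 assembly cluster may be pieces or copies of 1 gene. Alternatives were 0.1 or 5 added to the TPM, a filter of 5 TPM or none, an adjusted p limit of 0.01, median-ratio or quantile scaling, no variance trend, robust moderation, a replicate block and leaving out each library. Libraries were named as in the sample titles.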

Additional observations from a re-analysis of the deposited data

How the results depend on the processing

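No log2 contrast of the 138 named unigenes changed sign among those called. Of 110 called, 74 kept the call with every library left out in turn and 58 under every alternative run. With 1 library left out, unigenes called higher numbered 665 to 2061 and lower 606 to 2169, peaks 1388 to 2960, troughs 2620 to 6623, called peaks 434 to 1582, called troughs 291 to 1385, peaks with both steps called 122 to 718 and troughs 70 to 501, with the highest value of each without PF_Z3. Called peaks lower in PF_D than in PF_L numbered 168 to 499 and higher 9 to 50, and called troughs higher 102 to 346 and lower 20 to 75. Members called higher ranged from 9 to 12 for jasmonate repressors with MYC2, 7 to 11 for jasmonate synthesis, 6 to 18 for ERF and 6 to 15 for NAC. They ranged from 7 to 21 for WRKY, 5 to 18 for calcium sensors, 5 to 10 for early flavonoid enzymes and 4 to 9 for terpene synthases. For cellulose synthesis the range was 8 to 14 and for laccases 4 to 7. Those called lower ranged from 11 to 26 for DNA replication and 6 to 20 for mitosis. Smaller counts called lower were 2 to 6 for WRKY, 1 to 4 for NAC and 0 to 1 for laccases. With 5 added to the TPM there were 795 calls higher and 384 lower, 418 called peaks, 112 called troughs, 180 and 23 with both steps called, 120 called peaks lower in PF_D and 4 higher, and 46 called troughs higher and 8 lower, while NAC had 5 called, terpene synthases 6, cellulose synthesis 5, laccases 0 and mitosis 2. With 0.1 added, 197 peaks had both steps called. With a filter of 5 TPM there were 934 calls lower, 863 peaks, 1443 troughs, 269 called troughs, 102 troughs with both steps called and 2 laccases called. At an adjusted p under 0.01 there were 530 calls higher and 475 lower, 351 called peaks, 200 called troughs, 74 and 37 with both steps called, 132 called peaks lower in PF_D and 6 higher, and 79 called troughs higher and 15 lower. At that limit the lists had 7 jasmonate repressors or MYC2, 5 ERF, 6 NAC, 7 WRKY and 5 calcium sensors called higher. Also called higher were 5 early flavonoid enzymes, 5 terpene synthases, 5 cellulose synthesis members and 3 laccases. Called lower were 11 replication and 4 mitotic members. Median-ratio scaling gave 1414 troughs, 366 called, 98 with both steps called, 14 lower in PF_D, 24 called peaks higher in PF_D and 8 mitotic members lower. Quantile normalization gave 1414, 329 and 88, with 83 called troughs higher in PF_D, 17 called peaks higher in PF_D and 8 mitotic members lower. Under no filter, no variance trend and robust moderation every count stayed within 1.5 times of the one reported. The causes were not tested.

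Libraries of the same number did not deviate together, with correlations of -0.096 to 0.043 in 9 pairs against -0.089 to 0.14 in 18 pairs of unequal number. With the replicate block there were 1176 calls higher and 1128 lower, 656 called peaks and 460 called troughs, and 9 calcium sensors called higher. The counts on PF_D against PF_L and on single lists were run under these alternatives by a choice made after seeing the data.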
